A study of Mus musculus with 16 samples.

Results

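Vα3.2+ CD8 T cells of Themis+/+ mice were compared between lymph nodes (LN) and thymus through the TCRα transcripts they carried. The members are 4 of the 16 libraries of the series, taken by their labels: LN libraries 1 and 2 and thymus libraries 1 and 2, all sorted for Vα3.2 and all from Themis+/+ Foxp3-GFP mice of the C57BL/6 background. The thymic cells were SP (single positive) CD8 thymocytes and the LN cells were peripheral CD8 T cells; neither group received a treatment, and no age is given in the labels. The Foxp3-GFP allele, a reporter of regulatory T cells, is shared by both groups. The remaining 12 libraries are of sorted Themis-/- cells and of unsorted CD8 cells of both genotypes, and the 4 sorted Themis-/- libraries serve below as a second pair of tissues. The design text assigns the 2 libraries of a group to individual mice, whereas the methods state that LN of several mice were pooled before the sort, so p-values measure the spread between these libraries, which may in part be technical. Another field of the labels writes Va2.3 for the sort, and Vα3.2 is used here because the remaining fields and the reads give it.

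A TCRα chain is made when a V segment is joined to a J segment in the developing thymocyte. Nucleases trim the ends, short mirrored copies of an end (P bases) can remain, and terminal transferase adds bases without a template (N bases), so the junction, which encodes the CDR3 loop that faces the peptide, differs from cell to cell. Joining starts at J segments near the V segments and can proceed to those near the constant region when the first joint fails, and cells leave the thymus for the LN after positive and negative selection of the finished receptor.

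The V segment recognized as Vα3.2 is TRAV9N-3, on the plus strand of chromosome 14 (chr14:53231433-53232102, GRCm38). Its last 13 bases enter the CDR3, starting with the codon of the conserved cysteine. They are shown with J segments described below, TRAJ9 (chr14:54209393-54209450, plus strand) and TRAJ12 (chr14:54206553-54206610, plus strand), each from its first base to the conserved phenylalanine codon that closes the CDR3. The sequences are those of GENCODE release M21 on GRCm38. The capitals mark 2 bases that are not in the segment but mirror its end.
TRAV9N-3: tgtgctgtgagca
TRAV9N-3 followed by mirrored bases: tgtgctgtgagcaTG
TRAJ9: agcaacatgggctacaaacttaccttc
TRAJ12: gggactggaggctataaagtggtcttt

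Junctions that carried the findings are shown next, since they could be made from the germline ends with few added bases. Each is the nucleotide sequence with the most reads for its clonotype, from cysteine to the closing residue, and capitals mark bases that matched neither germline end exactly. A clonotype is a CDR3 amino acid sequence throughout. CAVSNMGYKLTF and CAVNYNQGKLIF needed no such base, and in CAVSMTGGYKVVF and in a TRAJ12 junction of 14 residues the extra bases were the mirrored T and TG that follow the whole V end.
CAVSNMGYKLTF (TRAJ9): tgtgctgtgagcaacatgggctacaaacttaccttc
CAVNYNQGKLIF (TRAJ23): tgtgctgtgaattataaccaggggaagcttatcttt
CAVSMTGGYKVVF (TRAJ12): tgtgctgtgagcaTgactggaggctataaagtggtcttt
TRAJ12 junction with both mirrored bases: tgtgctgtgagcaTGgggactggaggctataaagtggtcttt
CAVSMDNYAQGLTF (TRAJ26): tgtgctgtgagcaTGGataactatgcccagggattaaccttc
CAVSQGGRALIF (TRAJ15): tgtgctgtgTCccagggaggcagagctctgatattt

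The libraries held 23766 and 21570 reads in LN and 11674 and 18191 in thymus, in 84 to 1318 CDR3 nucleotide sequences. TRAV9N-3 was the best V match, or an equal best match with TRAV9D-3, in 78.0% and 58.3% of LN reads and in 74.7% and 47.5% of thymic reads. These Vα3.2 reads are the basis of every value below: 18542 and 12585 in LN, 8724 and 8649 in thymus. They fell into 1077 and 424 nucleotide sequences in LN and 69 and 249 in thymus, so thymus 1 had the fewest. Equal best matches with TRAV9D-3 made up 50.5% and 50.5% of these sequences in LN and 34.8% and 47.8% in thymus. Reads outside the TRAV9 family were at most 1.17% of a library. The receptor of NKT cells (TRAV11 with TRAJ18) and that of MAIT cells (TRAV1 with TRAJ33) had 0 reads in all 4, TRAV14 (Vα2) had 0 to 5 and TRAV12 (Vα8) had 0 to 4. TRAV9-4, another TRAV9 segment, made up 1.13% and 19.9% of reads in LN 1 and LN 2 and 6.04% and 28.9% in thymus 1 and thymus 2, so in both tissues the library numbered 2 held more of it; its part in the results was not tested, and library 1 and library 2 differences are given where they diverge.

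More clonotypes were read in LN than in thymus, and the 10 most abundant held a smaller share of the reads. The 10 most abundant clonotypes held 7.56% and 14.5% of Vα3.2 reads in LN 1 and LN 2, and 41.8% and 15.5% in thymus 1 and thymus 2. The LN libraries lay below the thymic ones without overlap, although LN 2 and thymus 2 were 1.01 percentage points apart while LN 1 and thymus 1 were 34.2 apart. The difference of the means, LN minus thymus, was -17.6 points, and -4.46 points without thymus 1. The exact permutation test over libraries, two-sided, gave p = 0.333, the smallest that 2 libraries against 2 can give, and this holds for every p of 0.333 below. In Themis-/- cells the shares were 14.5% and 10.6% in LN and 37.1% and 13.8% in thymus, where LN 1 lay above thymus 2, so the groups overlapped.

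The number of clonotypes needed to reach 50% of the reads was 171 and 74 in LN and 13 and 49 in thymus. As a share of the clonotypes of each library it was 17.7% and 18.6% in LN and 19.1% and 20.5% in thymus, a difference of -1.64 percentage points, LN minus thymus, without overlap. Evenness, the Shannon index over its maximum, was 0.933 and 0.920 in LN and 0.890 and 0.927 in thymus, which overlapped (exact permutation p = 0.667). The clonotypes themselves numbered 966 and 397 in LN and 68 and 239 in thymus, without overlap. The median clonotype had 13 and 21 reads in LN and 92.5 and 27 in thymus. The largest clonotype held 0.906% and 3.52% in LN and 7.29% and 2.66% in thymus, which overlapped (exact permutation p = 0.667), and over the median clonotype it was larger in LN, by a ratio of 12.9 and 21.1 against 6.88 and 8.52. PCR reads were not tagged as molecules, so a read count is not a cell count, and fewer cells cannot be told apart from fewer transcripts per cell.

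**Figure D1:**
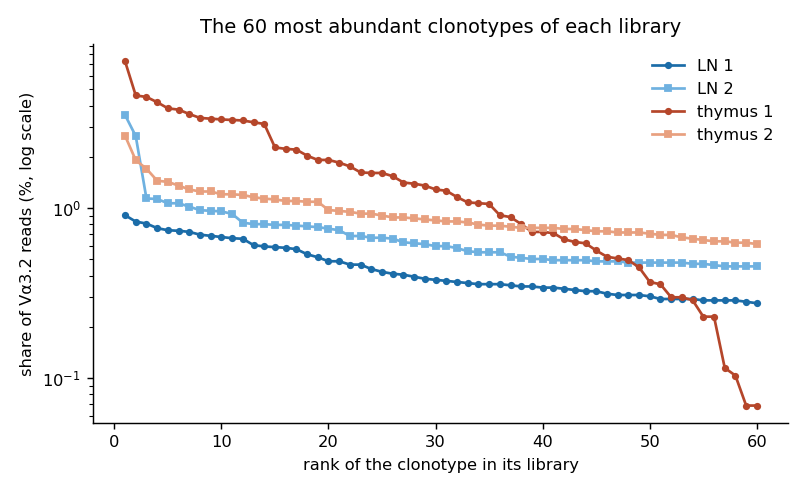
Share of Vα3.2 reads (log scale) of the 60 most abundant clonotypes of each library by rank, 1 line per library. Thymus 1, with 68 clonotypes in all, lies above the others at the first ranks and ends below them, LN 1 lies lowest at the first ranks, and LN 2 starts above thymus 2 and falls below it from the third rank.

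The leading clonotypes of the tissues were mostly not the same. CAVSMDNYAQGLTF was the largest of LN 2 at 3.52% of reads and reached 0.809% in LN 1, with 0 reads in both thymic libraries, which allows up to 0.0344% and 0.0347%. It had reads in 3 of the 4 Themis-/- sorted libraries, 112 of them in that genotype's thymus 2. The TRAJ12 junction with both mirrored bases, at 0.723% and 2.65% in LN, had 0 reads in thymus 1 and 4 reads, or 0.0462%, in thymus 2. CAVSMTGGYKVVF, at 0.760% and 1.14% in LN, had 0 reads in thymus 1 and 0.173% in thymus 2. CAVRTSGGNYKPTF (TRAJ6), at 0.831% and 0.969% in LN, had 0 reads in both thymic libraries. All 4 of these clonotypes were thus higher in both LN libraries than in either thymic library, as the choice by rank in LN favours.

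In thymus 1 the largest clonotype was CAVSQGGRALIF at 7.29%, against 0.567% in thymus 2 and 0.194% and 0.175% in LN. It was encoded by 4 nucleotide sequences over the 4 libraries. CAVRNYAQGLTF (TRAJ26) held 4.49% of thymus 1 and 0.532% of thymus 2, with 0.0216% in LN 1 and 0 reads in LN 2. A TRAJ6 junction of 15 residues held 4.59% of thymus 1, with 0 reads in thymus 2 and 0.200% and 0.278% in LN. In thymus 2 the largest was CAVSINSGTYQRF (TRAJ13) at 2.66%, which was also at 0.604% and 0.445% in LN but had 0 reads in thymus 1. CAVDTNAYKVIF (TRAJ30) held 1.70% of thymus 2 and 0.361% of LN 1, with 0 reads in LN 2 and thymus 1. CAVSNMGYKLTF was the exception that ranked among the 3 largest of both tissues, at 0.906% of LN 1 and 1.91% of thymus 2, with 1.13% in LN 2 and 0.630% in thymus 1.

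J segments from most of the locus were used in both tissues. Of 43 J segments with a Vα3.2 read, LN 1 used 43, LN 2 used 41, thymus 1 used 25 and thymus 2 used 35, and none was found in thymus alone. Reads per J segment were tested with edgeR (quasi-likelihood test, Benjamini-Hochberg adjustment) on the 38 segments that reached 10 reads in 2 or more of the libraries. At an adjusted p under 0.05 it called 0 of the 38, which is 0% of those tested; 2 had an unadjusted p under 0.05. DESeq2 called 3 of the same 38 (7.89%), TRAJ48, TRAJ56 and TRAJ57, all of which had 0 reads in both thymic libraries. The biological coefficient of variation between libraries of a tissue was 1.17, taken from the fit for its first J segment, and does not describe each segment. The standard error of the log2 fold change was 0.61 for TRAJ9 and 0.66 for TRAJ12, against 1.60 for TRAJ11 and 2.94 for TRAJ28.

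TRAJ9 was the J segment with the highest mean share of reads, and it was lower in LN. Its share was 7.88% and 6.27% in LN and 14.4% and 10.8% in thymus, without overlap, and by distinct sequences 6.78% and 6.60% against 14.5% and 10.8%. The log2 fold change was -0.73 with a standard error of 0.61, and edgeR gave an adjusted p of 0.95. In Themis-/- cells the shares were 8.10% and 9.27% in LN and 9.13% and 6.78% in thymus. The difference between the genotypes had an unadjusted edgeR p of 0.0492 and an adjusted p of 0.64.

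TRAJ12 was higher in LN by reads and not by sequences. It took 11.1% and 10.4% of LN reads and 6.49% and 3.32% of thymic reads, without overlap, with a log2 fold change of 1.19, a standard error of 0.66 and an edgeR adjusted p of 0.95. Its share of distinct sequences was 6.87% and 8.49% in LN and 7.25% and 7.23% in thymus, which overlapped. In Themis-/- cells its share of reads was 8.63% and 8.09% in LN and 8.50% and 9.93% in thymus, which overlapped. In Themis+/+ LN 2 the junction with both mirrored bases and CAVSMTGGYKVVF gave 333 and 143 of 1309 TRAJ12 reads. In Themis+/+ LN 1 they gave 134 and 141 of 2056. Without thymus 1 the edgeR adjusted p for TRAJ12 was 0.0174.

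The other J segments of highest mean share were TRAJ15, TRAJ26 and TRAJ23. TRAJ15 took 6.02% and 5.24% of reads in LN and 9.43% and 8.44% in thymus. TRAJ23 took 5.24% and 4.38% in LN and 7.30% and 9.65% in thymus. TRAJ15 and TRAJ23 were both lower in LN without overlap by reads but overlapped by sequences. TRAJ26 overlapped, at 5.18% and 8.84% in LN and 11.5% and 2.61% in thymus. TRAJ31, a segment of the middle of the locus, was lower in LN by reads, at 3.63% and 1.94% against 4.10% and 5.16%, and also by sequences. None of these had an edgeR adjusted p below 0.95.

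Over all 38 tested segments, both LN libraries were higher than both thymic libraries in 9 (23.7%) and lower in 5 (13.2%) by reads. By distinct sequences, over the 43 segments with a read, they were higher in 14 (32.6%) and lower in 3 (6.98%). The 3 with the largest fold among those higher were TRAJ57, TRAJ56 and TRAJ48, from the part of the locus nearest to the V segments. TRAJ57 had 70 and 166 reads in LN and 0 in thymus, at least 43.9-fold higher against a floor of 3 reads over both thymic libraries. TRAJ56 had 151 and 59 reads in LN and was at least 39.1-fold higher. TRAJ48 had 50 and 91 and was at least 26.2-fold higher. These reads came from few sequences: 7 and 4 for TRAJ57, 9 and 3 for TRAJ56, and 2 and 4 for TRAJ48. At most 0.943% of LN sequences carried each, while the 69 and 249 thymic sequences set a limit of 4.35% and 1.20% for a segment with no sequence, so by sequences their absence from thymus was not detectable as a difference at this depth. TRAJ48 was read in Themis-/- thymus 2, at 0.730% of reads from 1 sequence. With every V segment in place of TRAV9N-3 alone the log2 fold changes were 0.36 for TRAJ48, 1.67 for TRAJ56 and -0.19 for TRAJ57, as thymic reads of other V segments carried them.

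**Figure D2:**
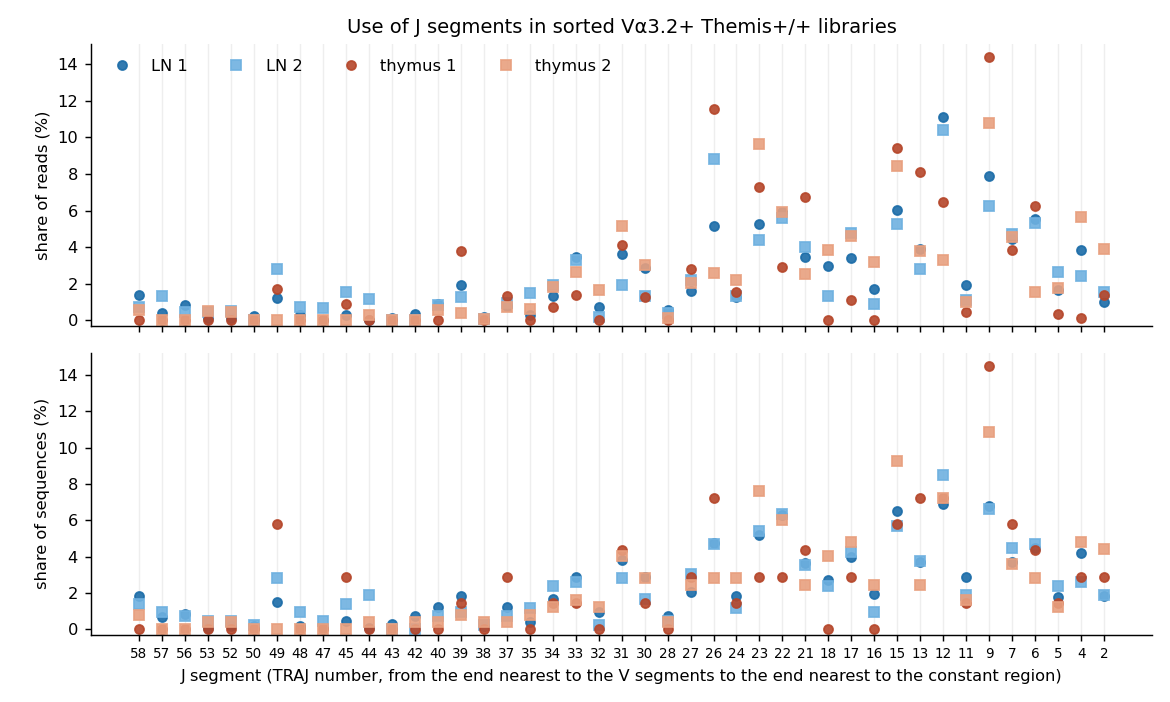
Share of Vα3.2 reads (upper panel) and of distinct sequences (lower panel) of each J segment, ordered along the locus, with a point for each of the 4 libraries. TRAJ9 lies higher in both thymic libraries in both panels, and TRAJ12 lies higher in both LN libraries in the upper panel alone.

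By position, the stretch nearest to the constant region, which includes TRAJ9, was used less in LN. TRAJ9 alone took 6.78% and 6.60% of distinct sequences in LN and 14.5% and 10.8% in thymus. Among the other segments of the stretch, TRAJ2 was lower in LN by sequences, TRAJ5 and TRAJ6 were higher, and TRAJ4 and TRAJ7 overlapped. The stretch without TRAJ9 was not tested. TRAJ1 to TRAJ9 held 22.7% and 22.6% of distinct sequences in LN and 31.9% and 27.7% in thymus, a difference of -7.10 percentage points without overlap (exact permutation p = 0.333). By reads it was 24.3% and 23.0% against 26.4% and 28.2%, again without overlap. In Themis-/- cells the difference by sequences was 0.577 points, with 23.8% and 27.2% in LN and 23.7% and 26.1% in thymus. The difference between the genotypes had an exact permutation p of 0.0556, the smallest that exchanging the genotype labels within each tissue can give; it was looked up among 6 stretches. By reads the stretch was lower in LN in Themis-/- cells too, by a mean of -4.26 points against -3.63 in Themis+/+ cells, and the difference between the genotypes had an exact permutation p of 0.722.

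The V-proximal stretch, TRAJ37 to TRAJ61, held 11.6% and 14.4% of sequences in LN and 13% and 4.42% in thymus. The groups overlapped (exact permutation p = 0.667), and the mean difference of 4.27 points was -0.05 without thymus 2, so it rested on that library. TRAJ10 to TRAJ18 took the largest share in LN 1, LN 2 and thymus 2, at 28.6%, 27.4% and 31.7%, and 24.6% in thymus 1.

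Fewer bases separated V from J in thymus by the deposited matches, while by exact matches the groups overlapped. In the deposited matches the mean was 2.05 and 1.87 inserted bases per distinct sequence in LN and 1.51 and 1.80 in thymus. LN was higher by 0.305 bases without overlap (exact permutation p = 0.333), but LN 2 exceeded thymus 2 by 0.0624 bases. Weighted by reads the groups overlapped, at 1.72 and 1.67 in LN and 1.20 and 1.69 in thymus. They also overlapped with every V segment, at 1.95 and 1.99 in LN and 1.45 and 2.07 in thymus. Junctions with 0 inserted bases made up 30.7% and 34.0% in LN and 43.5% and 36.5% in thymus, and junctions whose V and J matches overlapped made up 21.7% and 24.5% against 39.1% and 27.3%. These matches count a mirrored or mismatched base next to the V end as V. With exact matches to the germline ends instead, the bases between V and J averaged 3.21 and 2.93 in LN and 2.82 and 2.98 in thymus, which overlapped (p = 0.667). Junctions with 0 such bases were still fewer in LN, at 9.34% and 10.8% against 13.6% and 12.4%. In Themis-/- cells the deposited matches gave 2.01 and 1.95 inserted bases in LN and 2.41 and 1.77 in thymus, which overlapped.

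**Figure D3:**
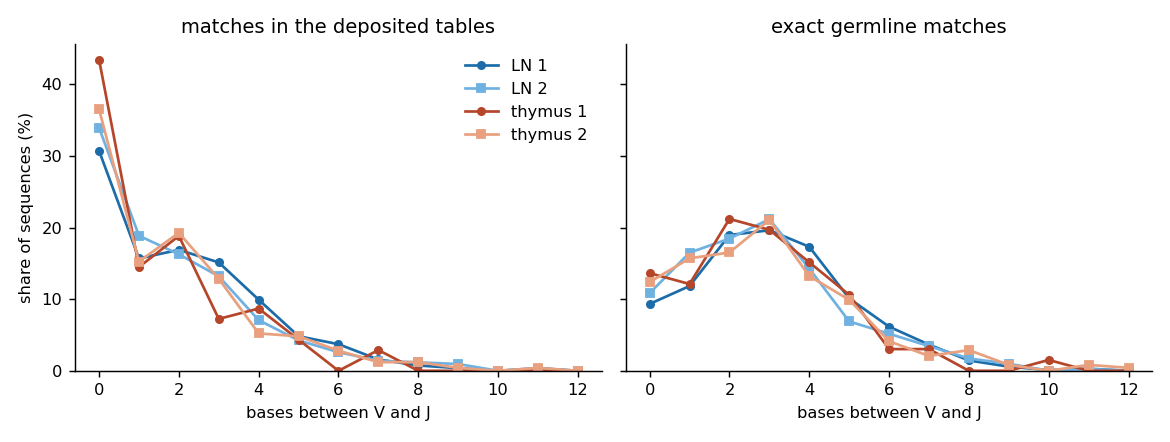
Share of distinct sequences with each number of bases between V and J, by the matches of the deposited tables (left) and by exact germline matches (right), 1 line per library. On the left thymus 1 stands highest at 0 bases, with 43.5%; on the right the 4 lines run closer together.

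CDR3 length differed little. The mean was 40.6 and 40.2 bp in LN and 40.3 and 40.6 bp in thymus (exact permutation p = 0.667). The most common length in LN was 42 bp, or 14 residues, at 35.8% and 33.5%, with 40.6% and 29.3% in thymus. CDR3s of 36 bp were more frequent in LN, at 16% and 18.4% against 11.6% and 14.9%, while those of 33 bp (3.06% and 4.48% against 7.25% and 4.82%) and 39 bp (25.8% and 25.7% against 27.5% and 29.3%) were less frequent, all 3 without overlap. By reads, 36 bp CDR3s overlapped.

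Residue 5, counted from the cysteine as 1, is the first that the V end does not fully encode. Methionine was the most frequent residue there in all 4 libraries. It was found in 24.1% and 25.5% of LN sequences and 27.5% and 29.3% of thymic sequences, lower in LN without overlap. By reads the order was the opposite, with 28.2% and 34.3% in LN and 25.3% and 27.6% in thymus, again without overlap and with p = 0.333 by the exact permutation test in both. Methionine sequences thus took more than their share of reads in LN 1 and LN 2, and less than their share in thymus 1 and thymus 2. The 2 largest clonotypes of LN 2, at 3.52% and 2.65% of its reads, both carried methionine there. In Themis-/- cells methionine was in 22.5% and 25.7% of LN and 19.7% and 27.4% of thymic sequences. By reads it was 33.6% and 32.2% in LN and 18.9% and 34.2% in thymus, so Themis-/- thymus 2 went the other way.

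The codon was ATG in all methionine sequences. The whole V end followed by the mirrored TG gave it in 241 of 260 and 103 of 108 LN sequences, and in 14 of 19 and 69 of 73 thymic sequences, that is, the last A of TRAV9N-3 was followed by the TG printed above. In 15 and 13 of these LN sequences and in 5 and 8 of these thymic sequences the exact J match reached into the TG, so these bases may equally be of the J segment. M, I or L together made up 38.1% and 42.2% in LN and 44.9% and 40.2% in thymus (exact permutation p = 0.667). With TRAV9N-3 as the sole best hit they made up 67.5% and 73.3% in LN and 62.2% and 72.3% in thymus. The level thus depends on whether equal best matches with TRAV9D-3 are kept, so residue 5 and the V match that chose the sequences are not independent. Sequences with TRAV9D-3 as sole best hit, 156 and 73 in LN and 7 and 32 in thymus, are left out. Of the charged residues at this position, aspartate and lysine were more frequent in LN without overlap: aspartate was in 3.99% and 3.54% of LN and 1.45% and 1.61% of thymic sequences, and lysine in 1.21% and 2.36% against 0% and 0.402%. Arginine, at 7.06% and 3.77% against 2.90% and 7.23%, and glutamate, at 1.30% and 1.18% against 0% and 1.20%, overlapped. The thymic values rest on few sequences, as 1 sequence is 1.45% of thymus 1. By reads aspartate overlapped.

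Hydropathicity of the whole CDR3, as the mean Kyte-Doolittle value per residue where higher is more hydrophobic, was 0.463 and 0.498 in LN and 0.411 and 0.521 in thymus. The thymic libraries lay on either side of those of LN (exact permutation p = 1). Mean net charge was 0.820 and 0.764 in LN and 0.754 and 0.944 in thymus, which also overlapped. For J position share, inserted bases, length, hydropathicity, residues M, I or L and the top 10 share, the exact permutation p adjusted by Benjamini-Hochberg over the 6 was at least 0.8. For the difference from Themis-/- cells none of the 6 could pass 0.05, since the smallest p of that permutation is 0.0556. The exact permutation p was at least 0.389 before and 0.667 after adjustment.

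Some clonotypes were found in both tissues. The union of the LN libraries held 1240 clonotypes, that of the thymic libraries 292, and 115 were in both, which is 9.27% of the LN set and 39.4% of the thymic set, shares that differ because the sets differ in size. Of thymus 1, 29 of 68 clonotypes (42.6%, with 66.4% of its reads) were found in LN, and of thymus 2, 100 of 239 (41.8%, with 48% of its reads). From the other side, 10.5% of LN 1 clonotypes and 13.6% of LN 2 clonotypes were found in thymus. Between thymus 1 and thymus 2 only 15 clonotypes were shared, 22.1% of thymus 1 and 6.28% of thymus 2, and between LN 1 and LN 2 there were 123. By nucleotide sequence, 93 of 1407 LN and 304 thymic sequences were in both tissues.

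Each thymic library was compared with each LN library. Thymus 1 shared 28 clonotypes with LN 1 and 18 with LN 2, and thymus 2 shared 87 with LN 1 and 48 with LN 2, so each shared more with the larger LN library. In the LN libraries of Themis-/- mice, which come from other mice, 32 of 68 thymus 1 clonotypes (47.1%) and 98 of 239 thymus 2 clonotypes (41.0%) were found. Those LN libraries were larger, with 1164 and 495 clonotypes against 966 and 397 in Themis+/+ LN. The LN sets are thus unequal in size, here and in the comparison by nucleotide sequence below. The difference, Themis+/+ minus Themis-/- LN, was thus of opposite sign in thymus 1 and thymus 2. By nucleotide sequence both thymic libraries were found more often in Themis+/+ LN, at 37.7% against 33.3% for thymus 1 and 31.7% against 30.5% for thymus 2; this difference was not tested. Of the 115 clonotypes in both tissues, 91 (79.1%) were also in a sorted Themis-/- library, against 332 of 1125 (29.5%) of those in LN alone and 39 of 177 (22.0%) of those in thymus alone.

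The sequences in both tissues were short of inserted bases. Their mean was 0.654 and 0.578 inserted bases in LN 1 and LN 2 and 0.692 and 0.582 in thymus 1 and thymus 2, whereas sequences found in that tissue alone had 2.16, 2.02, 2.00 and 2.37. The difference was -1.51 ± 0.203 bases (SD, n = 4 libraries), lower in 4 of 4, and an exact sign-flip test gave p = 0.125, the smallest that 4 libraries allow; the libraries are not independent here, since they hold the same sequences. Exact matches gave the same order, at 1.72, 1.84, 1.58 and 1.78 bases against 3.33, 3.07, 3.62 and 3.56.

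Sequences in both tissues were also more abundant, with a median of 21, 35, 169 and 29 reads against 11, 18, 62 and 24. Among sequences at or below the median reads of their library, those in both tissues had 0.667, 0.200, 0 and 0.526 inserted bases and those in 1 tissue 2.24, 1.92, 2.25 and 2.43. Above the median the values were 0.648, 0.686, 0.947 and 0.634 against 2.08, 2.13, 1.53 and 2.31. The order was therefore the same in 4 of 4 libraries in both abundance classes.

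Methionine at residue 5 was found in 39.7% and 48.9% of the shared LN sequences and in 38.5% and 40.5% of the shared thymic ones, against 22.9%, 22.7%, 20.9% and 24.1% of sequences in 1 tissue. V-proximal J segments, TRAJ37 to TRAJ61, were at 2.56%, 2.22%, 3.85% and 1.27% of shared sequences and at 12.3%, 15.8%, 18.6% and 5.88% of the others. Hydropathicity was higher in the shared sequences of 4 of 4 libraries, by 0.101 ± 0.0391 per residue (SD, n = 4). Length was lower in 3 of 4, by 0.534 bp on average.

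**Figure D4:**
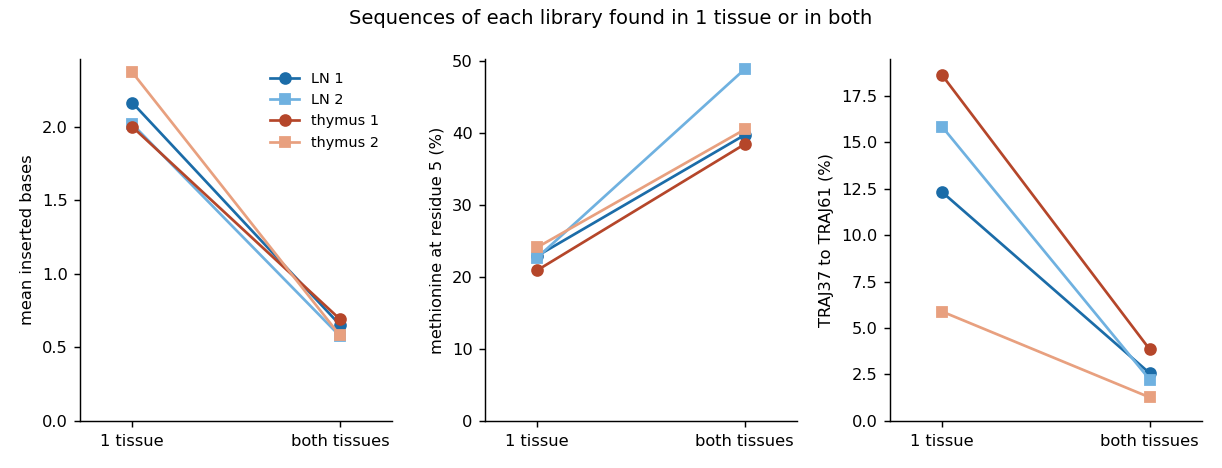
Mean inserted bases, share with methionine at residue 5 and share with TRAJ37 to TRAJ61 among the sequences of each library found in 1 tissue or in both, with a line for each library. All 4 lines fall in the left and right panels and rise in the middle panel.

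How often a thymic sequence was found in LN followed its inserted bases. Of thymus 1 sequences with 0 inserted bases 15 of 30 were in Themis+/+ LN, of those with 1 to 2 bases 10 of 23, and of those with 3 or more 1 of 16. Of thymus 2 sequences the counts were 49 of 91, 26 of 86 and 4 of 72. In Themis-/- LN the counts were 15 of 30, 7 of 23 and 1 of 16 for thymus 1, and 48 of 91, 25 of 86 and 3 of 72 for thymus 2. The fall from 0 to 3 or more inserted bases was thus seen in both thymic libraries with the LN of either genotype. These counts use the deposited matches. With exact matches a fall was also seen: 7 of 9 (77.8%) thymus 1 and 19 of 30 (63.3%) thymus 2 sequences with 0 bases were in Themis+/+ LN. Of those with 3 or more bases, 7 of 35 and 27 of 134 were.

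**Figure D5:**
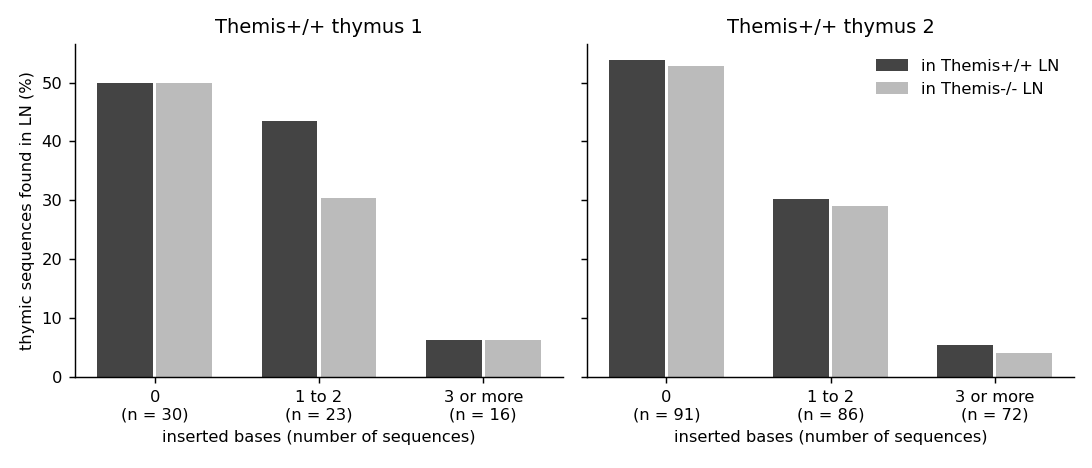
Share of the distinct sequences of each Themis+/+ thymic library that were found in LN of Themis+/+ (dark bars) or Themis-/- mice (light bars), by number of inserted bases, with the number of sequences under each class. Inserted bases are those of the deposited matches. In both panels the bars are highest at 0 bases, where thymus 2 reaches 53.8%, and lowest at 3 or more, where no bar exceeds 6.25%.

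Several nucleotide sequences often encoded a shared clonotype. Of the 115 clonotypes in both tissues 58 (50.4%) had more than 1 nucleotide sequence over the 4 libraries, against 103 of 1302 (7.91%) in 1 tissue, a count that rises with the number of libraries a clonotype is read in. In 90 of the 115 at least 1 nucleotide sequence was identical in LN and thymus, and in 25 the tissues shared the peptide by different sequences alone.

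There were 12 clonotypes in all 4 libraries. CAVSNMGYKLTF, between 0.630% and 1.91%, varied by the smallest ratio among them and was read in all 4 Themis-/- sorted libraries too, from 2 to 142 reads. CAVSMDYSNNRLTL (TRAJ7) was at 0.663% and 0.755% in LN and 0.0115% and 0.509% in thymus, and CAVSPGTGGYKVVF (TRAJ12) at 0.696% and 0.0397% in LN and 1.75% and 0.208% in thymus; both were also in all 4 Themis-/- libraries. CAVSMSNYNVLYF (TRAJ21), a junction with methionine and no base outside the germline ends, was at 0.572% and 0.262% in LN and 1.85% and 0.520% in thymus.

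Most others were highest in thymus 1. The libraries held 966 and 397 clonotypes in LN and 68 and 239 in thymus, so a clonotype of thymus 1 held a larger share of reads on average. The shares below are not adjusted for this. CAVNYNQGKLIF was at 3.12% there and at 0.280%, 0.302% and 0.139% in LN 1, LN 2 and thymus 2, and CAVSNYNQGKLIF, which uses the same TRAJ23 with the whole V end, was at 4.18% there and at 0.0917%, 0.683% and 0.208%. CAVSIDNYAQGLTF (TRAJ26) was at 3.38% against 0.356%, 0.230% and 0.116%, and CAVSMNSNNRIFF (TRAJ31) at 3.31% against 0.0863%, 0.0715% and 0.358%. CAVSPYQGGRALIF (TRAJ15) was at 2.03% against 0.129%, 0.175% and 0.659%. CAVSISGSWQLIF (TRAJ22) was higher in both thymic libraries, at 1.60% and 1.45%, than in LN, at 0.102% and 0.0238%. The largest clone of thymus 1, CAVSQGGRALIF, and a TRAJ17 junction with methionine complete the 12.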

How the data were processed

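The labels, and the methods of the study, gave the groups. The authors made TCRα cDNA by template switching, amplified it from the constant region, read it on a MiSeq and called clonotypes in MiXCR, with no version in the sources used here. The submitters' processing notes also name CASAVA 1.4 and the build mm9. The authors deposited the read count of each CDR3 nucleotide sequence, without normalization, and its fraction of the library's reads, which equals count over total. Between 4.55% and 9.65% of clone numbers were missing from the 4 tables. Sequences with 1 read were 3.73% to 6.68%.

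Sequences with TRAV9N-3 as best or equal best V hit were kept. Properties of the CDR3 count each distinct nucleotide sequence as 1. Inserted bases are those between the deposited V and J end positions; the exact match, chosen after the data were seen, needed at least 6 V and 12 J bases. Reads per J segment were tested with edgeR 4.0.16 (TMM, quasi-likelihood) and DESeq2 1.42.0 in R 4.3.3, and the script was tested on simulated data. Single values were compared by exact permutation over libraries (6 assignments, or 36 of the genotype labels). Python 3.11.15, numpy 2.4.6, pandas 2.3.3 and matplotlib 3.10.9 did the rest. A limit for a count of 0 is 3 counts and covers counting error only. Members, lists and tests were chosen with earlier results of these data known.

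Named J segments are the 5 of highest mean read share and, as fewer than 2 passed in either direction, the 3 of largest fold in each direction without overlap. Named clonotypes are the 3 largest of each library, those in all 4, and the 5 most abundant nucleotide sequences in both tissues.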

Additional observations from a re-analysis of the deposited data

Results flagged for a closer look

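The share of sequences with TRAJ19 to TRAJ28 was higher in LN than in thymus by 1.52 percentage points in Themis+/+ cells, with 24.5% and 24.8% against 21.7% and 24.5%, and lower by 2.17 points in Themis-/- cells, with 24.4% and 22.6% against 25.0% and 26.4%. By distinct sequences the groups did not overlap in either genotype and their order was opposite. By reads both directions turned, to -3.92 points in Themis+/+ cells, whose groups then overlapped, and 6.26 points in Themis-/- cells. Exchanging genotype labels gave an exact permutation p of 0.0556, the smallest possible, before any correction for the measures examined.

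CDR3s of 36 bp showed the same kind of opposite order. LN exceeded thymus by 3.96 points in Themis+/+ cells and was lower by 0.590 points in Themis-/- cells, and the exact permutation p of the difference was 0.167. By reads both directions turned here too, to -0.908 and 1.43 points.

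Of the 115 clonotypes in both tissues, 26 (22.6%) were also read with TRAV9N-3 in the unsorted Themis+/+ libraries, against 53 of 1302 (4.07%) of those in 1 tissue. TRAV9-4 held 28.9% of the reads of thymus 2, although the cells were sorted for Vα3.2.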

How the results depend on the processing

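The mean differences in inserted bases and in the top 10 share kept their direction under all alternatives run. For inserted bases the groups overlapped by reads, with every V segment and with exact matches. No alternative for the top 10 share equalised the number of clonotypes, and 10 clonotypes are a larger part of a small library. LN minus thymus ranged, leaving out 1 library at a time, from 0.157 to 0.453 inserted bases, from -30.8 to -4.46 points for the top 10 share, from -0.0469 to 8.58 points for TRAJ37 to TRAJ61, from -0.277 to 0.108 bp for length, from -0.0399 to 0.0694 for hydropathicity and from -4.78 to -0.02 points for M, I or L at residue 5. The length difference turned with TRAV9N-3 as sole best hit (0.248 bp), without sequences of 1 read (0.096 bp) and by reads (0.471 bp). That for M, I or L turned with the sole best hit (3.17 points) and by reads (4.42 points). The cause was not tested.

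The mean share of thymic clonotypes found in LN, 42.2%, was 38.4% with every V segment, 46.8% with the sole best hit, 43.0% without sequences of 1 read and 34.7% by nucleotide sequence; leaving out 1 library gave 23.3% (without LN 1) to 42.6%. Hydropathicity turned below 0 without LN 2 or thymus 1, and TRAJ37 to TRAJ61 without thymus 2. J segments called by edgeR, 0 of 38, were 3 by DESeq2, 3 without thymus 1 (TRAJ12, TRAJ49 and TRAJ6) and 0 without LN 1, LN 2 or thymus 2. With the replicate number as a block it called 2, TRAJ12 (log2 1.30) and TRAJ9 (log2 -0.74), each with an adjusted p of 0.000155. J shares of same-numbered libraries deviated with a correlation of -0.08 over 38 segments. The numbers were not treated as a pairing in the main fit. The correlation cannot decide whether the numbers mark a shared experiment, since it covers J shares alone and thymus 1 had few sequences. The paper states that the data of each genotype came from 2 individual experiments. The share of TRAV9N-3 reads was lower in library 2 of each tissue, in both genotypes. In Themis-/- cells it was 75.7% and 48.9% in LN and 83.0% and 34.0% in thymus. Which of the fits applies was not tested. The log2 fold change of TRAJ26, -0.04, was 0.34 by distinct sequences, 0.18 with every V segment, 0.39 with the block and -0.55 to 1.59 leaving out 1 library, above 0 without LN 1 (0.15) or thymus 1; with every V segment that of TRAJ57 was -0.19, that of TRAJ48 0.36 and that of TRAJ56 1.67.

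With 2 libraries against 2 no single value can pass a p of 0.05, and thymus 1, with 69 sequences, limits every comparison.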
